A study of Homo sapiens with 25 samples.

Results

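The genes described here are the protein-coding genes of chromosome 19 whose symbol is ZNF followed by digits alone. The rule uses symbol and chromosome and no measured value, and the members numbered 240 of the 60179 gene identifiers in the RNA table. Another 6 genes of the chromosome with a letter after the digits (ZNF585A, ZNF585B, ZNF780A, ZNF780B, ZNF587B and ZNF324B) were counted apart. RNA, open chromatin (ATAC) and trimethylated histone H3 lysine 4 (H3K4me3, by CUT&RUN) were measured in HEC-1A, an established epithelial line from an endometrial adenocarcinoma, labelled WT in every group. RNA and ATAC each had 3 untreated libraries, 3 libraries from cells given 20 µM THC, the cannabinoid tetrahydrocannabinol, for 24 h, and 3 for 72 h. H3K4me3 had 3 untreated and 3 THC libraries, and its labels give no THC duration. The labels give no time for the untreated cells and no vehicle, so time in culture and THC cannot be told apart. Replicates are called biological in the labels, which do not say what was separate, so p-values measure the spread between these libraries, which may in part be technical.

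Most ZNF genes of chromosome 19 encode C2H2 zinc finger proteins, in which repeated fingers each read a short stretch of DNA. Many carry a KRAB domain, which binds the corepressor TRIM28 and through it brings in the histone H3 lysine 9 methyltransferase SETDB1 and HP1 proteins. The genes arose by tandem duplication and stand in clusters, and many of their proteins bind transposable elements. Which members carry a KRAB domain was not analysed here.

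The series as a whole sets the scale. RNA values were TPM, length-corrected transcript abundances scaled to a fixed total per library, which keep no depth, so the depth per RNA library is unknown. Genes with a mean of at least 1 TPM over the 9 libraries were tested with limma on log2(TPM + 1), 13753 in all, and a gene was called at a Benjamini-Hochberg adjusted p under 0.05 over all of them. The median log2 change of all tested genes was -0.23 at 24 h and 0.06 at 72 h against untreated, and 0.26 at 72 h against 24 h. Because whole libraries moved, counts are also given after centring each library on the median of the tested genes. EPCAM, KRT8, KRT18, CDH1 and PAX8, which mark epithelium and the endometrial lineage, lay between 73.5 and 1047 TPM in all libraries, whereas PTPRC, CD3E, COL1A2 and PECAM1, of immune, stromal and endothelial cells, were at or below 0.277 TPM. ATAC lists held 38495 to 150884 peaks and H3K4me3 lists 30098 to 35879.

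Of the 240 members, 160 passed the filter on low values (66.7%), beside 59.5% of all protein-coding genes and 82.2% of the 236 ZNF genes of other chromosomes. The 80 others included 70 with a mean below 0.1 TPM and 15 listed at 0 in all 9 libraries, among them ZNF257, ZNF302 and ZNF667. Few members lay near the filter: ZNF575 at 1.05 and ZNF177 at 1.07 TPM were just inside, ZNF382 at 0.777 and ZNF221 at 0.685 TPM just outside. The median level of the tested members was 8.86 TPM, against 18.5 TPM for all tested genes. Only 6 members reached a mean of 50 TPM.

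Promoters of 210 members were found in the RefSeq table (GRCh38.p14), as 250 bases before to 50 after the gene's start. Of these, 6 are printed, picked as follows. ZNF431 had the largest rise at 24 h, ZNF429 the largest fall at 24 h, ZNF554 the largest rise at 72 h and ZNF414 the largest fall at 72 h. ZNF83 was the most abundant member. ZNF257 was the first by symbol among members listed at 0 in every library and without an H3K4me3 peak. Capitals mark matches, on either strand, to 8 motifs. They are CCGGAAG, the core read by ETS factors, GGGCGG (the GC box of SP factors), CCAAT (the box read by NFY), AAGATGG (a YY1 core), TGACGTCA (the cyclic AMP response element), TGATGCAA (an ATF4 composite element), TATAAA (the TATA box) and the NRF1 palindrome. Overlapping matches run together. The windows were chr19:21141790-21142089 (plus strand) for ZNF431, chr19:21505352-21505651 (plus) for ZNF429, chr19:2819618-2819917 (plus) for ZNF554, chr19:8514118-8514417 (minus) for ZNF414, chr19:52690447-52690746 (minus) for ZNF83 and chr19:22052234-22052533 (plus) for ZNF257, each written 5′ to 3′ along the gene.
ZNF431: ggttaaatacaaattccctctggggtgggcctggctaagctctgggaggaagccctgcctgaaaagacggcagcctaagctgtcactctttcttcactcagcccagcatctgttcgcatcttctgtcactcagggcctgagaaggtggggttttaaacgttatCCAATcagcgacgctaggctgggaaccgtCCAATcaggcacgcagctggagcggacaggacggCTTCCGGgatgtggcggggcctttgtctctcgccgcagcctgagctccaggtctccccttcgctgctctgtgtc
ZNF429: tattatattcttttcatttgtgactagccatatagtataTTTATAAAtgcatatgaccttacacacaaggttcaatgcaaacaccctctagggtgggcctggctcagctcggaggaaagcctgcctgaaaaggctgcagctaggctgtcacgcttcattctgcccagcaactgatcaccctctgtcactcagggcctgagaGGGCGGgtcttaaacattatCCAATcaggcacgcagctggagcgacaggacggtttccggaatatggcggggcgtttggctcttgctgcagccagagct
ZNF554: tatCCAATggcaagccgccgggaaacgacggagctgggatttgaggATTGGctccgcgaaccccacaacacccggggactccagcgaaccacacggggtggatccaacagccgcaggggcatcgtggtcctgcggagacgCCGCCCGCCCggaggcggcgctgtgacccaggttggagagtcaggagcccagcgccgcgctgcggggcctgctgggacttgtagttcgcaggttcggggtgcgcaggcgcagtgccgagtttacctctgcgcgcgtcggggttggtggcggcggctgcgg
ZNF414: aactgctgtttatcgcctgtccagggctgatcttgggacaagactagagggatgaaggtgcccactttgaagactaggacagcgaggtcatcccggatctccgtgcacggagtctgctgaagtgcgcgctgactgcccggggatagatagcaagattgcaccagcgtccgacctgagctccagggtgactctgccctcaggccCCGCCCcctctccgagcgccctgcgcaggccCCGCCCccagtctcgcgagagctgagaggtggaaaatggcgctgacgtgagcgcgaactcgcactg
ZNF83: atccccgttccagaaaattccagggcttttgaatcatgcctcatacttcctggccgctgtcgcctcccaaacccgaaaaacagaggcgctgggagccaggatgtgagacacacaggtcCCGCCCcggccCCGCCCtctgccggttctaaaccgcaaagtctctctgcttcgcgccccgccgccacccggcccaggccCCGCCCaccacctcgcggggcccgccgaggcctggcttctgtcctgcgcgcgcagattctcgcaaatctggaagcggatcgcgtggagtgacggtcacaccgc
ZNF257: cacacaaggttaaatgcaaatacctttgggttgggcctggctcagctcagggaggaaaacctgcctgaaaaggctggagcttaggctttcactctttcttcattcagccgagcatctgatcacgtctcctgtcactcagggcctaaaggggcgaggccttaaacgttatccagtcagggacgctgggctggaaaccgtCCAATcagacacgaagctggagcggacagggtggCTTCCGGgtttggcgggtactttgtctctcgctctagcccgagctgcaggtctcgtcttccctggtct

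The ZNF431 and ZNF257 windows were identical at 245 of 307 alignment columns (79.8%), and both hold CTTCCGG, the reverse complement of CCGGAAG. ZNF431 and ZNF429 shared 54.9% of columns, where a column with a gap counts as unlike. Over aligned bases alone they were identical at 202 of 232, and ZNF431 and ZNF257 at 245 of 293. Every pair with ZNF554, ZNF414 or ZNF83 shared 44.1% to 51.2% of columns. The highest of these, ZNF414 with ZNF83, was identical at 169 of 270 aligned bases. Over the 210 promoters, CCGGAAG was found in 44.3%, beside 14.4% of all 15285 protein-coding promoters, 20.7% of those of tested protein-coding genes and 37.1% of the ZNF genes of other chromosomes. The share was 45.2% in tested members and 42.2% in untested ones. CCAAT was present in 52.9% of member promoters (36.5% of all), GGGCGG in 69.5% (59.2%) and TATAAA in 1.90% (9.62%). Untested members held a median of 19.5 CpG dinucleotides per window against 21 in tested members, while untested protein-coding genes at large held 8. A match is a description of the letters and does not show that a factor binds there.

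At 24 h of THC, fewer members rose than fell, though not after centring. Of the 160 tested, 34 were called higher (21.3%, where 25.0% of all tested genes were) and 68 lower (42.5%, where 51.7% of all were), and 58 were not called. The median member changed by -0.14 on the log2 scale, between -1.17 for ZNF429 and 2.10 for ZNF431. After centring, 60 were higher and 46 lower (36.0% and 37.3% of all genes). On the log2(TPM + 1) scale, rises of at least 2-fold were called for 7 members (5.28% of all genes) and such falls for 4 (10.6%). This scale understates ratios of low genes, and tested members had a lower median level than all tested genes. The 2-fold shares are therefore not like for like. ZNF709, called lower, had a ratio of mean TPM of 0.39 at 24 h but a fold of 0.614 on this scale. The 24 h and untreated libraries did not overlap for 35 members that were higher (25.8% of all genes) and 68 that were lower (52.8%). These shares lie near or below those of all genes.

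The largest rises at 24 h were in a few members scattered along the chromosome. ZNF431 (ENSG00000196705.8, chr19:21142040-21196053) measured 8.73, 9.78 and 8.58 TPM untreated, 40.9, 43.9 and 41.0 at 24 h, and 25.9, 27.4 and 26.5 at 72 h. The 3 groups did not overlap, with 24 h highest. In bulk RNA, fewer cells with a transcript and less of it per cell cannot be told apart. On the log2(TPM + 1) scale the rise was 2.10 ± 0.060 (SE, limma adjusted p = 1.14e-09), a 4.64-fold ratio of mean TPM. ZNF333 measured 3.57, 2.81 and 3.32 TPM untreated, 15.9, 15.6 and 16.6 at 24 h and 6.52, 7.19 and 6.86 at 72 h. It too was highest at 24 h and without overlap between groups, rising by 2.01 ± 0.079 (SE, adjusted p = 8.82e-09). Its interval overlaps that of ADGRE2 and reads of both could not be told apart here.

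ZNF83 (ENSG00000167766.18, chr19:52612377-52690496) was the most abundant member, at 51.9, 51.4 and 53.8 TPM untreated, 175, 199 and 179 at 24 h, and 203, 202 and 182 at 72 h. Both THC groups lay above every untreated library and overlapped each other. The rise was 1.79 ± 0.060 (SE) at 24 h (limma adjusted p = 3.19e-09), and the level at 72 h differed from that at 24 h by 0.09 ± 0.060 (adjusted p = 0.212). ZNF581 went from 33.7 ± 1.47 TPM (SD, n = 3) untreated to 101 ± 5.0 at 24 h and 67.9 ± 5.87 at 72 h, all 3 groups apart. Its interval contains ZNF580, which measured 41.8 ± 1.96, 34.3 ± 2.77 and 41.0 ± 0.766 TPM, so the neighbour inside it did not share the rise, though reads of overlapping genes may be split between them. In all, 7 of the named members overlap another protein-coding gene: ZNF83, ZNF146, ZNF333, ZNF382, ZNF540, ZNF570 and ZNF581. Members with near-identical copies also share reads, so that counting may move TPM between copies. ZNF473, known also as ZFP100, works with the U7 snRNP in histone pre-mRNA processing. It measured 15.2 ± 0.991 TPM untreated, 38.5 ± 2.02 at 24 h and 38.0 ± 0.562 at 72 h, a called rise at both times.

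Smaller rises at 24 h were called for ZNF430 (5.70 ± 0.434 to 14.8 ± 2.44 TPM, SD, n = 3), which lies in the same run of genes as ZNF431, and for ZNF611 (9.49 ± 1.65 to 21.8 ± 1.91 TPM), which lies beside ZNF83. ZNF737 rose from 1.05 ± 0.333 to 3.02 ± 0.612 TPM, near the filter. In all 3 the 24 h libraries lay above every untreated one.

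Falls at 24 h were smaller in size than the largest rises. ZNF429 (ENSG00000197013.10, chr19:21505602-21540668) measured 8.38, 9.07 and 9.65 TPM untreated, 3.46, 3.29 and 3.57 at 24 h, and 7.17, 6.61 and 7.0 at 72 h. All 3 groups were apart, with 24 h lowest, and the change at 24 h was -1.17 ± 0.071 (SE, limma adjusted p = 1.69e-07). ZNF530 fell from 18.6 ± 1.18 to 7.88 ± 0.227 TPM (SD, n = 3) and stood at 12.8 ± 0.217 at 72 h. ZNF225 fell from 5.95 ± 0.358 to 2.29 ± 0.301 TPM, and ZNF599 from 4.60 ± 0.752 to 1.66 ± 0.243 TPM. ZNF180 fell from 16.5 ± 0.783 to 7.99 ± 0.217 TPM, and ZNF444, a SCAN-domain member, from 23.8 ± 1.90 to 12.1 ± 1.67 TPM. ZNF260 had the largest standard error of the falls named at 24 h (0.220), at 19.2, 20.8 and 13 TPM untreated against 5.76, 10.7 and 10.6 at 24 h. Its groups still did not overlap, and its adjusted p was 0.0033 by limma. ZNF772 fell from 3.63 ± 0.582 to 1.47 ± 0.374 TPM.

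At 72 h the members rose more often than they fell. Against untreated, 90 of 160 were called higher (56.3%, where 40.1% of all tested genes were) and 11 lower (6.88%, where 33.0% were), and 59 were not called. The median change was 0.32, between -1.03 for ZNF414 and 2.59 for ZNF554. After centring, 84 were higher and 23 lower (34.8% and 38.9% of all genes), with a median of 0.23. On the log2(TPM + 1) scale, rises of at least 2-fold numbered 15 (8.17% of all genes). The single fall of that size was that of ZNF414 (5.56%). The groups did not overlap for 96 members that were higher (41.6%) and 16 that were lower (35.0%). ZNF genes of other chromosomes gave 107 higher and 25 lower of 194 tested, with a median of 0.30, and other protein-coding genes of chromosome 19 gave 262 and 231 of 674, with a median of 0.05. The members' share of rises thus lay close to that of ZNF genes elsewhere (56.3% against 55.15%). Their share of falls was smaller (6.88% against 12.89%). The difference between these lists was not tested. The 24 h and 72 h comparisons share the 3 untreated libraries.

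**Figure D1:**
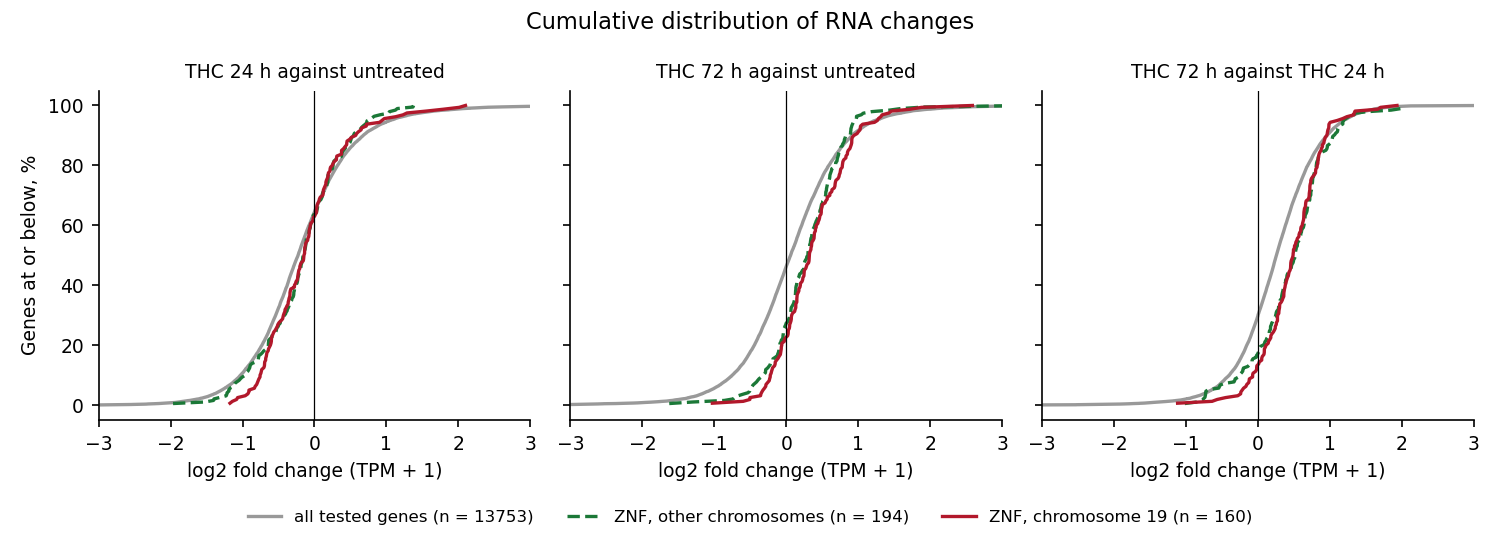
Cumulative share of genes (y axis, percent) at or below each log2 fold change of TPM + 1 (x axis), for all 13753 tested genes (grey), 194 ZNF genes of other chromosomes (green, dashed) and 160 members (red), in each comparison. At 72 h against untreated the red and green lines lie to the right of the grey one, with medians of 0.32, 0.30 and 0.06.

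ZNF554 (ENSG00000172006.12, chr19:2819868-2836735) had the largest rise at 72 h. It measured 4.16, 4.70 and 3.97 TPM untreated, 7.01, 7.84 and 7.07 at 24 h, and 31.8, 30.0 and 30.3 at 72 h. The groups were apart at each step, and the rise at 72 h was 2.59 ± 0.071 (SE, limma adjusted p = 9.43e-10), a 7.18-fold ratio of mean TPM. ZNF841 measured 7.55, 8.03 and 7.04 TPM untreated, 14.3, 16.8 and 15 at 24 h and 27.0, 27.0 and 27.5 at 72 h, again apart at each step. ZNF350, known as ZBRK1, a KRAB protein that binds BRCA1, went from 7.34 ± 0.918 TPM (SD, n = 3) to 14.6 ± 1.79 and then 19.7 ± 0.956. ZNF431 and ZNF83, described above, were also among the 8 largest rises at 72 h. ZNF274, whose protein brings SETDB1 to the ends of other zinc finger genes, was looked up for that role and not by the naming rule. It measured 14.9 ± 0.496 TPM untreated, 15.3 ± 0.639 at 24 h and 26.4 ± 2.26 at 72 h, called higher at 72 h (0.78 ± 0.067 SE, adjusted p = 2.48e-06 by limma).

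Other members were near or below their untreated level at 24 h and above it at 72 h. ZNF432 measured 2.99, 3.56 and 3.54 TPM untreated, 2.73, 3.15 and 2.26 at 24 h, and 10.7, 10.5 and 11 at 72 h. Only the 72 h group stood apart from the others. Its change was -0.24 ± 0.098 (SE) at 24 h (limma adjusted p = 0.0477) and 1.43 ± 0.098 at 72 h (adjusted p = 4.75e-07). The 24 h call was lost after centring (-0.02) and without untreated library 2 or 3, or 24 h library 1 or 3 (adjusted p = 0.0759 to 0.184). ZNF540 measured 1.33, 1.35 and 1.74 TPM untreated, 0.434, 0.933 and 1.25 at 24 h, and 5.32, 5.24 and 4.47 at 72 h. All 3 groups were apart, but its fall at 24 h (adjusted p = 0.0301) was lost after centring (adjusted p = 0.263) and without 24 h library 1 or untreated library 3 (adjusted p = 0.10 in both). ZNF112 measured 3.51, 3.80 and 3.33 TPM untreated, 1.77, 2.02 and 1.78 at 24 h, and 6.46, 6.11 and 6.11 at 72 h. It moved by -0.67 ± 0.077 at 24 h and by 0.67 ± 0.077 at 72 h, apart in every group. ZNF548 was at 8.11 ± 0.851 TPM (SD, n = 3) untreated and 7.99 ± 0.437 at 24 h (adjusted p = 0.854), then rose to 21.9 ± 0.852 at 72 h.

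**Figure D2:**
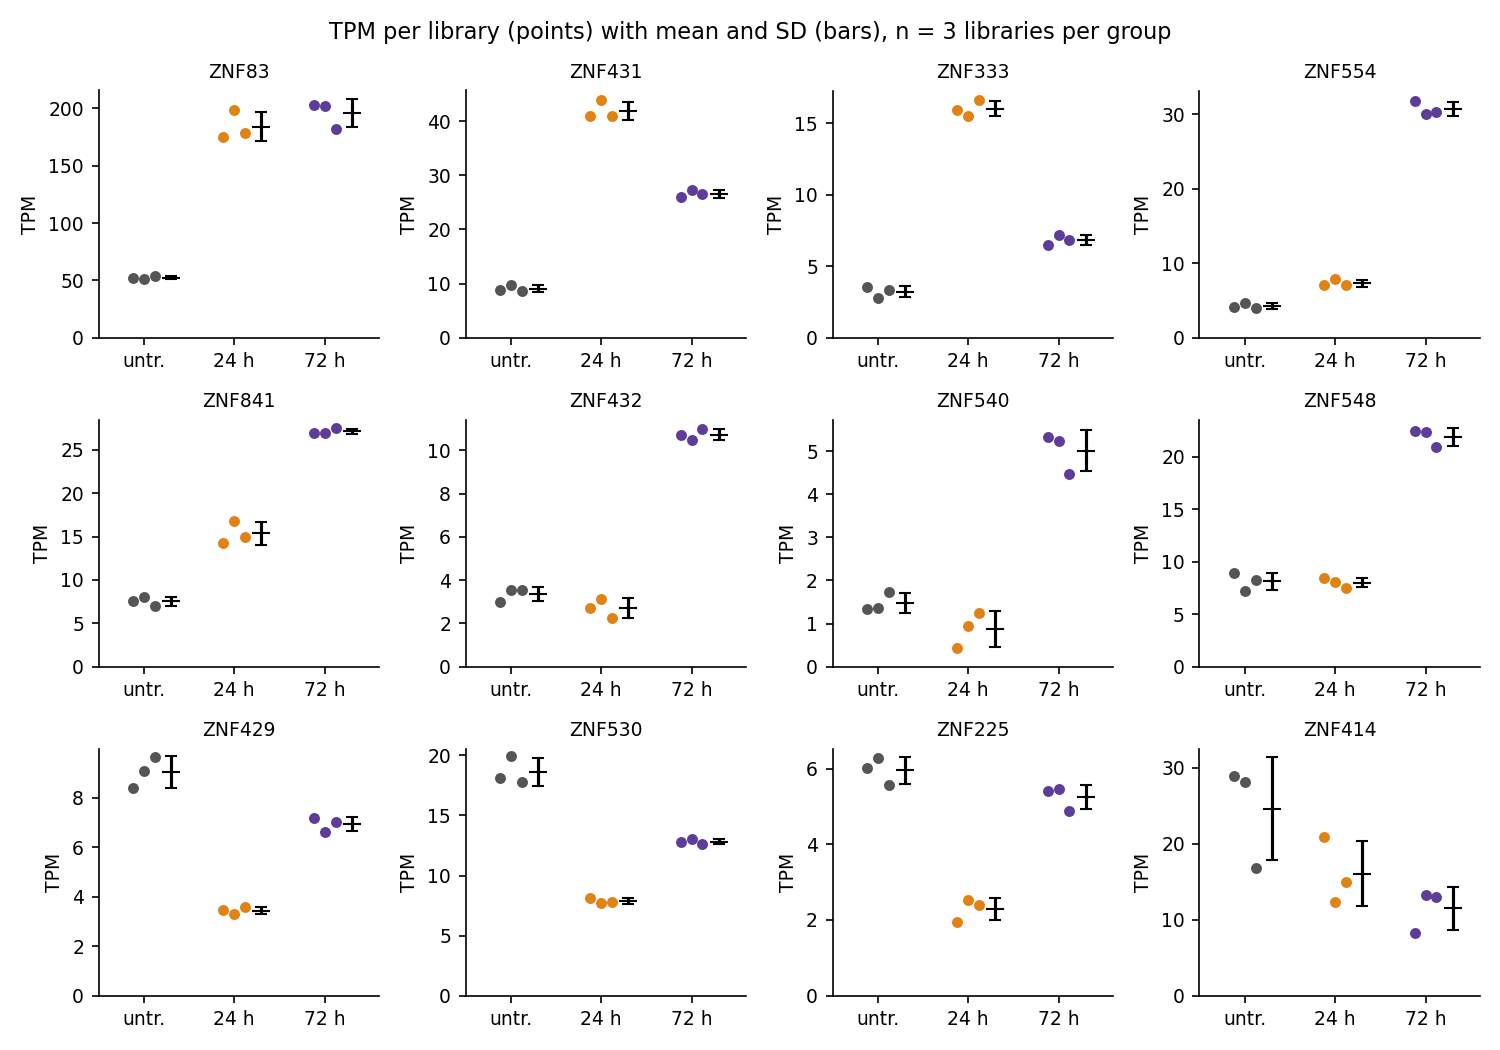
TPM (y axis, from 0) of 12 members in each untreated, 24 h and 72 h library (points), with the mean and SD of 3 libraries beside them. ZNF431 and ZNF333 are highest at 24 h, ZNF554, ZNF432, ZNF540 and ZNF548 stand highest at 72 h, and ZNF429, ZNF530 and ZNF225 are lowest at 24 h.

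Of the 11 members lower at 72 h, ZNF414 (ENSG00000133250.14, chr19:8509678-8514167) fell most. It measured 28.9, 28.1 and 16.8 TPM untreated, 20.8, 12.4 and 15 at 24 h, and 8.22, 13.2 and 13 at 72 h. The third untreated library lay within the 24 h range but above every 72 h library. The change was -1.03 ± 0.245 (SE) at 72 h (limma adjusted p = 0.0034) and -0.58 ± 0.245 at 24 h (adjusted p = 0.0531, not called). ZNF180, at 11.3 ± 0.721 TPM (SD, n = 3), and ZNF530, at 12.8 ± 0.217 TPM, stood lower at 72 h than untreated, though less so than at 24 h, and ZNF429 likewise, with a change of -0.34 ± 0.071 (SE, adjusted p = 0.00154). ZNF724 went from 7.23 ± 1.04 to 4.41 ± 0.259 TPM, ZNF799 from 6.66 ± 0.628 to 4.97 ± 0.337 TPM, and ZNF480 from 49.9 ± 2.02 to 39.8 ± 3.94 TPM. ZNF599 was at 3.37 ± 0.303 TPM at 72 h (limma adjusted p = 0.0196), a call lost without untreated library 2 or 3, or 72 h library 3 (adjusted p = 0.0631 to 0.0778). The 24 h calls of ZNF724 and ZNF799 (adjusted p = 0.00809 and 0.0427) were lost after centring, and that of ZNF799 was also lost without untreated library 1 or 2, or 24 h library 1 or 2 (adjusted p = 0.0599 to 0.153).

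Set directly against 24 h, 72 h was higher in 121 members (75.6%, where 54.9% of all tested genes were) and lower in 3 (1.88%, where 17.8% were). The median change was 0.49, and after centring 72 were higher and 30 lower (30.4% and 37.9% of all genes). The largest rises from 24 h to 72 h were those of ZNF554 (1.93 ± 0.071, SE), ZNF540 (1.70 ± 0.156), ZNF432 (1.67 ± 0.098), ZNF548 (1.35 ± 0.077) and ZNF112 (1.34 ± 0.077). The 3 that fell were ZNF333 (-1.12 ± 0.079), ZNF431 (-0.64 ± 0.060) and ZNF581 (-0.57 ± 0.067), each of them highest at 24 h. The groups did not overlap for 120 members that were higher (55.4% of all genes) and 6 that were lower (18.5%). Changes of at least 2-fold on the log2(TPM + 1) scale were called for 10 upward (8.85%) and 1 downward (1.95%). ZNF genes of other chromosomes gave 139 higher (71.65%) and 22 lower (11.34%) of 194, with a median of 0.52.

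Among the 5 most abundant members, ZNF83 and ZNF581 changed as given above. ZNF544 measured 96.0 ± 2.52 TPM (SD, n = 3) untreated, 75.6 ± 1.35 at 24 h and 91.6 ± 6.86 at 72 h, a called fall at 24 h. Its rise from 24 h to 72 h, 0.27 (log2), turned to -0.033 after centring. ZNF146, known as OZF, a protein made almost wholly of fingers, was at 80.5 ± 2.05, 84.2 ± 6.42 and 89.7 ± 7.50 TPM, and ZNF226 at 53.0 ± 1.21, 53.5 ± 2.74 and 55.5 ± 2.99 TPM, neither called in any comparison.

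Summed over all 240 members, RNA came to 1808, 1897 and 1769 TPM untreated, 1888, 1992 and 1910 at 24 h, and 2594, 2567 and 2470 at 72 h. The 72 h libraries lay above all others. The ratio to untreated was 1.06 at 24 h (exact permutation test, two-sided, p = 0.2) and 1.39 at 72 h (p = 0.1 by the same exact test, the smallest that 3 against 3 can give). Without ZNF83 the 24 h mean was 1746 ± 41.8 TPM against 1772 ± 67.1 untreated (SD, n = 3), and the 72 h mean 2348 ± 53.1 TPM. The 24 h excess in the sum thus came with ZNF83, and the 72 h excess was present without it.

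Along the chromosome the members fell into 9 runs of at least 5, with gaps under 1 Mb between neighbours, and 9 members outside them. For comparison, 25.0% of all tested genes were higher and 51.7% lower at 24 h, and 40.1% were higher and 33.0% lower at 72 h. At 72 h against untreated, rises outnumbered falls in 8 of the 9 runs. The exception was the run of 5 from ZNF302 to ZNF792 (34.68 to 34.96 Mb), with 0 higher and 1 lower of 3 tested. The run from ZNF101 to ZNF254 (19.67 to 24.13 Mb), which holds ZNF431, ZNF430, ZNF737 and ZNF429, had 37 members and 21 tested. It gave 8 higher and 7 lower at 24 h, and 16 higher and 2 lower at 72 h. The run from ZNF653 to ZNF791 (11.48 to 12.63 Mb) had 25 members, and of its 14 tested, 5 were higher and 2 lower at 72 h, with a median of -0.02. The largest run, 57 members from ZNF628 to ZNF446 (55.48 to 58.49 Mb), gave 6 higher and 22 lower of 45 tested at 24 h, and 25 higher and 1 lower at 72 h. Differences between runs were not tested.

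Summed TPM by run followed single genes in places. The run from ZNF175 to ZNF331 (51.57 to 53.58 Mb) summed to 345 ± 10.4 TPM untreated, 469 ± 35.6 at 24 h and 595 ± 20.3 at 72 h (SD, n = 3), and ZNF83 lies in it. The run of 5 from ZNF554 to ZNF77 (2.82 to 2.94 Mb) summed to 14.8 ± 0.986, 18.2 ± 1.21 and 43.0 ± 1.72 TPM, and ZNF554 alone held 30.7 ± 0.973 of the last. The run from ZNF575 to ZNF296 (43.53 to 45.08 Mb) fell and then rose, at 209 ± 3.06, 172 ± 7.1 and 253 ± 9.14 TPM. Neighbours changed with little likeness: across 115 adjacent pairs of tested members the Pearson correlation of log2 changes was 0.147 at 24 h and 0.113 at 72 h against untreated, over genes of the same libraries. Among runs with over 20 promoters, CCGGAAG ranged from 2 of 24 promoters between ZNF653 and ZNF791 to 21 of 29 between ZNF101 and ZNF254.

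**Figure D3:**
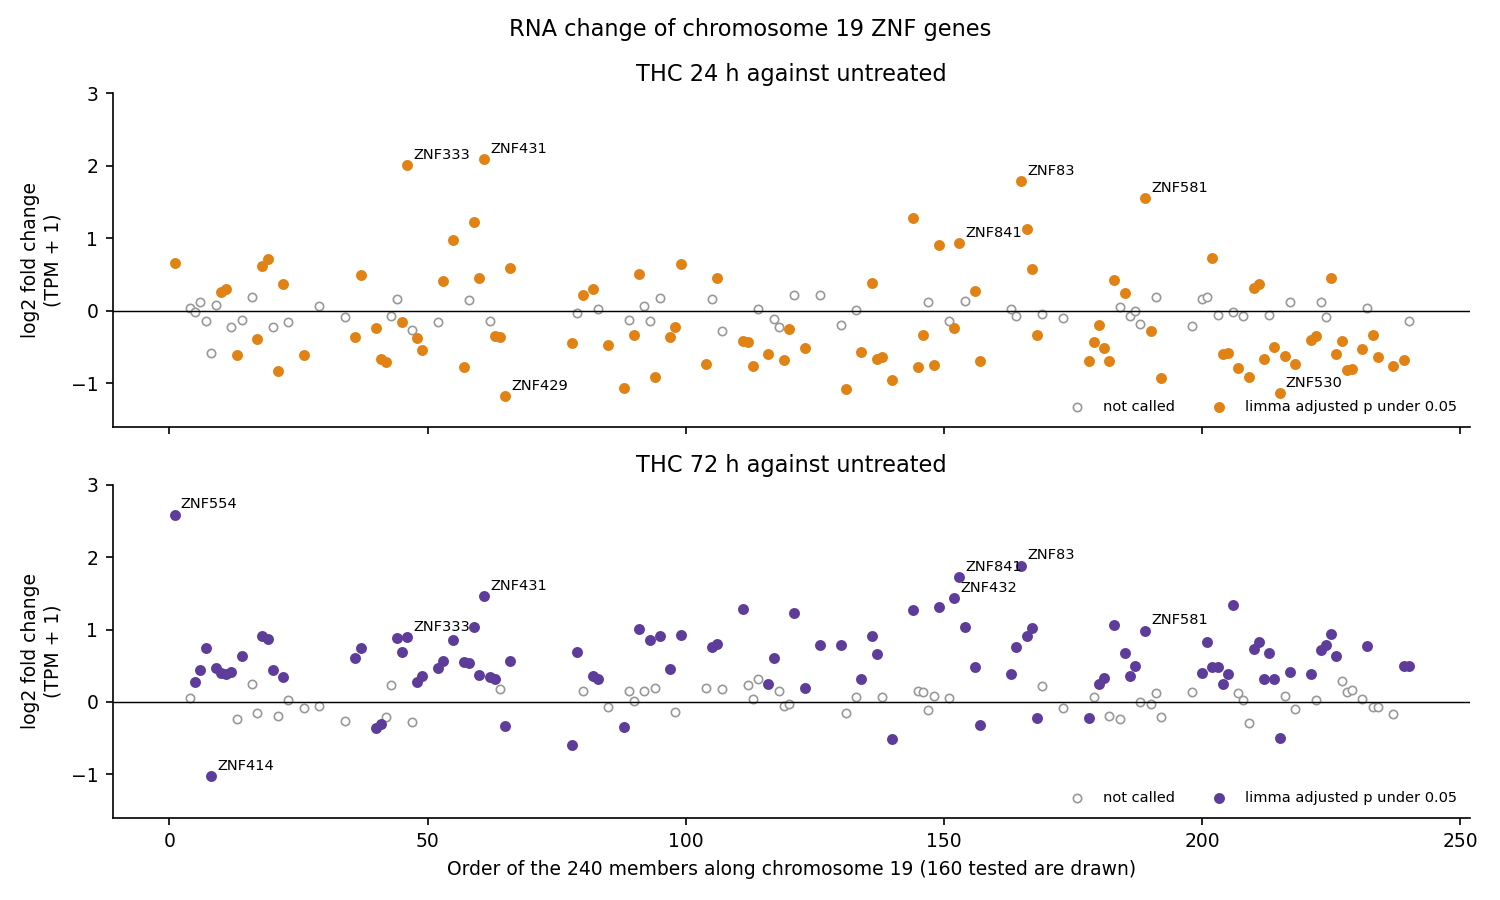
Log2 fold change of TPM + 1 (y axis) of the 160 tested members in their order along chromosome 19 (x axis), at 24 h (top, orange) and 72 h (bottom, purple) against untreated, filled where called by limma. At 72 h, 90 of the 101 filled points lie above 0 (89.1%), against 34 of 102 at 24 h (33.3%). Of all calls over the tested genes, 54.8% were rises at 72 h and 32.6% at 24 h.

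H3K4me3, the mark of active and poised promoters, stayed at the members' 5′ ends. A peak within 500 bp of a RefSeq start was listed for 147, 146 and 145 of the 210 members in the untreated libraries and for 146, 147 and 145 in the THC libraries. The means were 146 ± 1.00 in both groups (SD, n = 3, exact permutation test, two-sided, p = 1). None gained and none lost a peak in 3 of 3 against 0 of 3 libraries, where 0.0721% of all promoters gained one and 0.0197% lost one. Width here is the summed length of all peaks listed at a start, the largest over a gene's starts. Its median over members with a peak was 2852 ± 65.6 bp untreated and 2876 ± 57.5 bp with THC (exact permutation p = 0.6). Whether a peak's height changed was not analysed, since the authors' folds were not compared between lists.

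The mark was present at nearly all expressed members. A peak was listed for 141 or 142 of the 146 tested members with an entry in each library (96.6% to 97.3%), beside 94.4% to 95.0% of all tested protein-coding genes. Of these 146, 141 had a peak in all 6 libraries, 1 (ZNF285) in some and 4 in none. Of 64 untested members, 59 had none. The share of untested protein-coding genes at large was not worked out, so this contrast is not shown to be particular to the members. Over all protein-coding starts 62.9% to 63.8% had the mark per library, beside 69.0% to 70.0% of members. The expressed members without the mark were ZNF177, ZNF418, ZNF577 and ZNF814. ZNF577 stood at 9.64 ± 0.483 TPM untreated and 10.7 ± 0.890 at 72 h (SD, n = 3) with neither an H3K4me3 nor an ATAC peak at its listed start. ZNF814 rose from 2.10 ± 0.236 TPM to 4.95 ± 0.238 at 72 h, again without H3K4me3 there. In the other direction, ZNF181, ZNF497, ZNF546 and ZNF837 had the mark in all 6 libraries with means between 0.0732 and 0.628 TPM, and ZNF296 in some. Whether those transcripts start elsewhere was not tested.

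The members with the largest RNA changes kept their H3K4me3 peak in all 6 libraries. At ZNF431 the summed peak length was 3747, 3241 and 3133 bp untreated and 2801, 3132 and 3388 bp with THC, overlapping ranges. At ZNF554 it was 2067, 2140 and 2101 bp untreated and 2189, 2539 and 2193 bp with THC, longer in every THC library. At ZNF429 the ranges overlapped, at 2406, 2298 and 2147 bp against 2271, 2326 and 2501 bp. The largest summed lengths were at ZNF628 (mean 8231 bp untreated) and at the pair ZNF580 and ZNF581 (7841 bp).

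ATAC peaks were listed at the 5′ ends of 178, 155 and 159 members untreated, 153, 150 and 153 at 24 h, and 147, 132 and 153 at 72 h. Each THC library thus lay below each untreated one, by 12 members on average at 24 h and 20 at 72 h (exact permutation test, two-sided, p = 0.1 for both, the smallest possible). Over all protein-coding starts the share with a peak was 74.7%, 65.2% and 70.6% untreated, 64.1%, 62.3% and 67.2% at 24 h, and 61.2%, 52.5% and 67.2% at 72 h. That of the members was 84.8%, 73.8% and 75.7%, then 72.9%, 71.4% and 72.9%, then 70.0%, 62.9% and 72.9%, so lower shares on average were seen over all starts as well as in the members. The lists also differed in length, with 150884, 65042 and 99912 peaks untreated, 62064, 57356 and 78290 at 24 h, and 51017, 38495 and 80773 at 72 h. With the 25000 peaks of highest -log10 q in each library the differences were 1.33 (exact p = 0.9) and -1.67 members (exact p = 0.8). Without the first untreated library, the longest list, the 24 h difference was -5 members and the 72 h one -13. Without the second, shortest 72 h list the latter was -14.

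Tested and untested members both had fewer ATAC peaks at 72 h, as had tested protein-coding genes at large. Among tested members, 143, 142 and 143 of 146 had a peak untreated (97.9%, 97.3% and 97.9%), and 142, 139 and 142 at 24 h. At 72 h 139, 126 and 141 had it (95.2%, 86.3% and 96.6%), and 126 of 146 had it in all 9 libraries. Of all tested protein-coding genes, 95.6%, 93.6% and 95.5% had one untreated. The shares were 92.8%, 91.3% and 94.5% at 24 h, and 90.3%, 79.2% and 94.2% at 72 h. Among untested members the count was 35, 13 and 16 of 64 untreated, 11 in each 24 h library, and 8, 6 and 12 at 72 h. The share of untested protein-coding genes at large was not worked out. Whether this fall is particular to the members thus cannot be seen, and the share over all starts, given above, was lower on average too. A peak in 3 of 3 untreated and 0 of 3 THC libraries was seen for 1 member at 24 h, ZNF570 (0.439% of all promoters lost one so), and for 2 at 72 h, ZNF570 and ZNF382 (0.793%). None was gained, where 0.00655% of all promoters gained one. ZNF570 was at or below 0.0143 TPM in every library. ZNF382 measured 1.07, 0.949 and 1.17 TPM untreated, 0.235, 0.214 and 0.345 at 24 h, and 0.960, 1.28 and 0.769 at 72 h, so its RNA was back near the untreated level when no peak was listed. It lay under the filter and was not tested, and neither gene had an H3K4me3 peak.

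**Figure D4:**
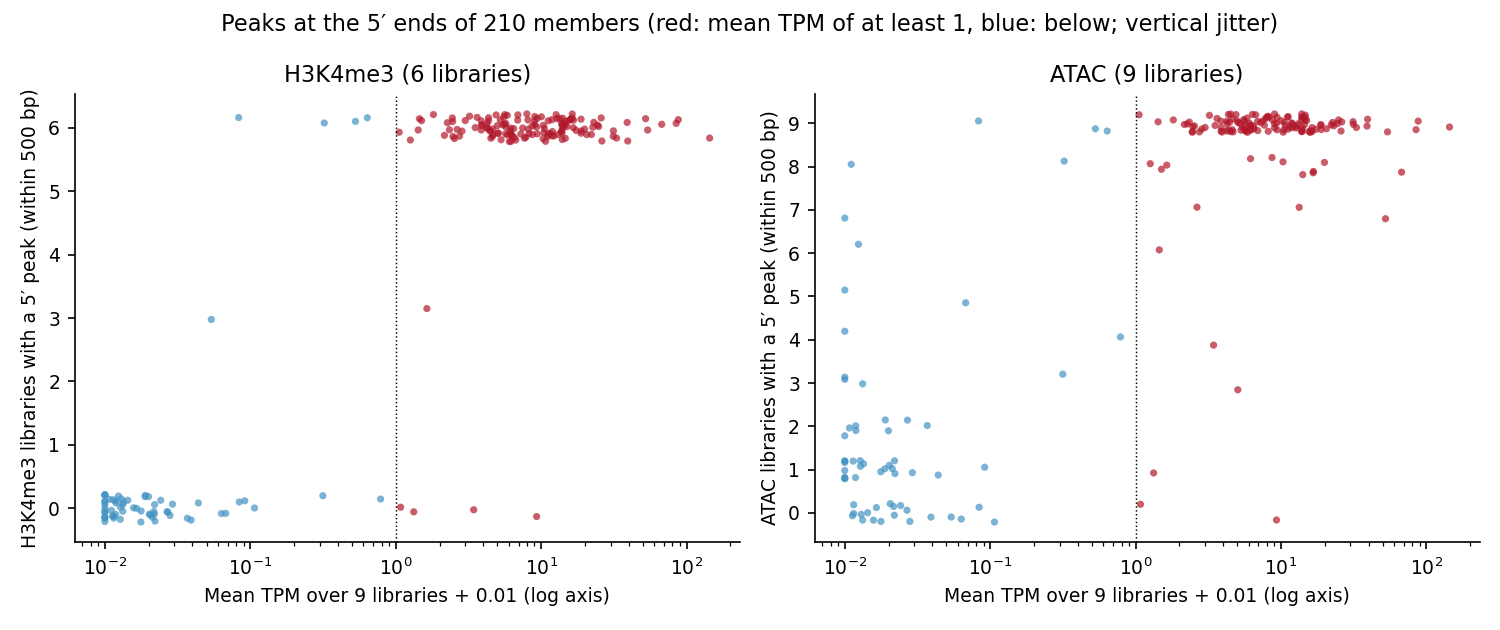
Number of H3K4me3 libraries of 6 (left) and of ATAC libraries of 9 (right) with a peak within 500 bp of a 5′ end (y axis, jittered) against the mean TPM + 0.01 (log axis) of 210 members, with members of at least 1 TPM in red. For H3K4me3, 141 of 146 red points lie at 6 and 59 of 64 blue ones at 0, whereas untested members spread over the lower ATAC counts.

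Most genes of a list of corepressor and silencing genes had less RNA in THC. The list was written with results of these data known in part, so its counts only describe the genes chosen. Of its 24 genes, all tested, 19 fell and 1 rose at 24 h (51.7% and 25.0% of all genes), and 17 fell and 4 rose at 72 h (33.0% and 40.1%). The list's median change was -0.69 at 24 h and -0.61 at 72 h. TRIM28, which KRAB domains bind, measured 1202, 1244 and 1314 TPM untreated, 663, 629 and 622 at 24 h, and 781, 748 and 833 at 72 h. Its untreated libraries lay above all others, and the change was -0.97 ± 0.052 (SE, limma adjusted p = 6.60e-08) at 24 h and -0.67 ± 0.052 at 72 h. Whether these changes bear on the members' RNA was not tested.

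SETDB1, the H3K9 methyltransferase, moved apart from TRIM28, from 25.9 ± 0.670 TPM (SD, n = 3) to 33.7 ± 2.23 at 24 h, a called rise, and 28.0 ± 1.45 at 72 h (limma adjusted p = 0.135). Its partner ATF7IP was at 31.8 ± 0.676, 32.9 ± 0.780 and 28.6 ± 1.16 TPM, called lower at 72 h. CBX5, which encodes HP1α, fell from 85.4 ± 4.92 to 33.5 ± 1.07 and 33.0 ± 0.284 TPM. UHRF1, which brings DNMT1 to newly copied DNA, fell from 30.9 ± 0.764 to 5.15 ± 0.285 TPM and stood at 13.1 ± 0.895 at 72 h. The deacetylase HDAC1 fell from 237 ± 9.35 to 75.3 ± 1.12 and 119 ± 5.34 TPM. In the HUSH silencing complex, TASOR fell from 70.3 ± 5.35 to 24.6 ± 1.85 and 39.0 ± 3.55 TPM, whereas MPHOSPH8 was called lower at 24 h (28.6 ± 1.12 to 23.9 ± 1.53 TPM) and higher at 72 h (40.9 ± 1.36 TPM). TRIM33 moved in the same order, from 18.8 ± 0.50 to 14.7 ± 2.74 and then 27.8 ± 1.68 TPM, called both times.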

How the data were processed

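Of 25 samples in the series 24 were used, and the IgG one was not analysed here. The submitters' processing notes name the build GRCh38 and, without saying what each did, MACS2 2.2.7.1, MACS3, Salmon, Bowtie2, Trim Galore, FastQC, Picard and SAMtools. How strand entered the counting, how ATAC reads were shifted, how duplicates were handled and which control H3K4me3 peaks had were steps not given in the sources used here. The RNA table the authors deposited holds TPM, with 1 fixed total in each library. No count test was run, and since the total is fixed, abundant genes that go up push the rest down. The peak lists, 1 per library, carry the authors' fold enrichment (a ratio) and score, both unused. Of the -log10 p and -log10 q that the authors deposited, only the second served, as a filter within a list.

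The RNA model was limma 3.58.1 (R 4.3.3) with eBayes and trend, fitted to log2(TPM + 1) of 13753 genes with a mean of at least 1 TPM in 9 libraries, 3 per group. The code was tested on simulated data. Fold changes on this scale understate those of low genes. Positions, promoters and 5′ ends come from RefSeq (GRCh38.p14), with entries for 210 members. A peak counted when it overlapped 500 bp either side of a 5′ end, or a gene's other end. Peak widths are summed lengths of all peaks so counted at a 5′ end, the largest over a gene's listed starts. Counts per library were compared by exact permutation tests with scipy 1.17.1, where 3 against 3 cannot go below p = 0.1. Named members were the 8 largest called rises and falls against untreated and up to 5 each way for 72 h against 24 h (mean of at least 2 TPM, groups not overlapping), the 5 most abundant, and members whose peak was lost or gained in all libraries. In the corepressor list, TRIM28, SETDB1, ATF7IP, CBX5 and the 3 largest called changes per comparison were named. The rule for members uses no measured value, but this group of genes and the lists were chosen with earlier results of these data known. Domain and finger patterns in the proteins were not analysed here. The alternatives tried were other pseudocounts and filters, centring, rescaling without mitochondrial genes, array weights, a replicate term, fits of the groups compared alone, leaving out each library, and other peak windows, overlaps and thresholds.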

Additional observations from a re-analysis of the deposited data

Results flagged for a closer look

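Among the members named by rule, the 24 h and 72 h THC groups differed for 3 whose calls against untreated had opposite signs. All 3 were among the 5 largest rises from 24 h to 72 h that the rule named. The p-values below come from the comparison that helped pick them and are no separate support. For ZNF540 the log2 difference of 72 h and 24 h was 1.70, tested directly by limma (adjusted p = 5.34e-06). For ZNF432 it was 1.67 (adjusted p = 3.23e-07) and for ZNF112 1.34 (adjusted p = 2.82e-07). All 3 libraries at 72 h lay above all 3 at 24 h for each gene. The call at 24 h against untreated was kept for ZNF112 under the alternatives run, and was lost for ZNF432 and ZNF540 under several. Members outside the naming rule showed opposite calls too and are not all listed. Neither their number nor the share of all tested genes with opposite calls was counted. ZNF66, picked after its values were seen, moved by -0.78 at 24 h and 0.55 at 72 h against untreated, and by 1.33 between them.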

How the results depend on the processing

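Of 69 comparisons of single named members, 60 kept direction and call under every alternative. Over 1035 such values, 1003 kept both, 31 kept the direction without the call, and 1 changed sign: ZNF544 from 24 h to 72 h, at -0.033 after centring. Centring gave 60 members higher and 46 lower at 24 h, so more rose than fell, where 34 and 68 were called without it. Of all genes 36.0% were then higher and 37.3% lower. Centring gave 23 members lower at 72 h (38.9% of all genes). From 24 h to 72 h it gave 72 higher and 30 lower (30.4% and 37.9%). Rescaling without mitochondrial genes gave 22 lower at 72 h against untreated, where 5292 of 13815 genes were lower. Array weights gave 5 lower from 24 h to 72 h, where 2677 of 13753 genes were. The cause was not tested. Leaving out 1 library gave 32 to 36 members higher and 61 to 69 lower at 24 h, 86 to 91 and 9 to 13 at 72 h, and 111 to 120 and 3 to 4 from 24 h to 72 h. With the 25000 ATAC peaks of highest -log10 q per library the difference in members with a 5′ peak was 1.333 at 24 h and -1.667 at 72 h. At a -log10 q of at least 5 it was -34.667 at 72 h (exact permutation p = 0.2). Leaving out 1 library gave -16.5 to -5 at 24 h, -24.5 to -13 at 72 h and -0.5 to 0.5 for H3K4me3.

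Replicate numbers recur across groups, but deviations of same-numbered libraries correlated at -0.199 to 0.252, so they were not taken as pairs. With the replicate block 34 members were higher and 67 lower at 24 h, 91 and 14 at 72 h, and 121 and 4 from 24 h to 72 h, and of the named members' calls only that of ZNF432 at 24 h was lost (adjusted p = 0.0591 by limma). TPM keeps no depth, so the precision of low members cannot be given, and the length of an ATAC list limits what its missing peaks show.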

Other observations

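Peaks at the other end of the genes were rare. H3K4me3 was listed within 500 bp of the 3′ end of 8 to 12 of the 210 members per library (3.81% to 5.71%). The share of all protein-coding genes with an entry was 8.5% to 9.8%. The mark was listed there in all 6 libraries for 8 members: ZNF324, ZNF544, ZNF574, ZNF580, ZNF581, ZNF628, ZNF701 and ZNF766. An ATAC peak there was listed for 2 to 16 members (0.952% to 7.62%, beside 2.94% to 10.3% of all those genes), and ZNF324 had it in all 9 libraries. ZNF580 lies inside the interval of ZNF581. Of all members, 40 overlap another protein-coding gene of the RefSeq table and 127 overlap any other gene, so some of these ends belong to a neighbour as well.

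The 24 other C2H2-named genes of chromosome 19 (ZFP, ZSCAN, ZIM, ZIK, ZBTB and ZNF with a letter after the digits) had 12 tested. Of these, 1 was higher and 10 lower at 24 h, and 8 higher and 0 lower at 72 h against untreated, with medians of -0.40 and 0.37 by limma on log2(TPM + 1). Of all tested genes, 25.0% were higher and 51.7% lower at 24 h, and 40.1% and 33.0% at 72 h, with medians of -0.23 and 0.06.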
